A study of Homo sapiens with 9 samples.

Results

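The RAB small GTPases were described in Huh7, a human hepatocarcinoma cell line, after silencing of enzymes at the entry and at the end of de novo ceramide synthesis. Members were all genes whose symbol is RAB, a digit and then only digits or the letters A to D, so that interactors such as RAB3GAP1 or RAB11FIP2 were left out. The rule found 57 genes among the 19775 that had a probe set annotated to them alone, and each gene was read from its brightest probe set, by mean log2, of those annotated to it alone. Affymetrix arrays were hybridised with biotin-labelled RNA from 3 groups of 3 arrays, which the labels call biological replicates: scramble control siRNA, siRNA against the SPTLC subunits of serine palmitoyltransferase (SPTLC123) and siRNA against the dihydroceramide desaturase DEGS1. All groups were the same cell line with 20 nM siRNA in a lipid reagent. The stated time is 72 h from transfection, while the protocol adds a low-serum conditioned medium at that time and harvests the cells 24 h later. Values are log2 of the deposited normalized intensity, and errors are the SD over 3 arrays for a level and the SE of the limma fit for a change. A gene is called where limma's adjusted p (Benjamini-Hochberg over all 19775 genes, two-sided) is under 0.05.

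RAB proteins are switches that bind membranes. In the GTP-bound form each recruits effectors (tethers, motors, lipid kinases) to a particular compartment, and so gives vesicles and organelles their address. A lipid tail, added by a geranylgeranyl transferase with the help of an escort protein, anchors them, exchange factors load GTP, and GTPase-activating proteins end the signal. In hepatocytes they carry newly made plasma proteins and lipoproteins from the endoplasmic reticulum through the Golgi to the surface, recycle receptors from endosomes and deliver cargo to lysosomes.

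Knockdown of SPTLC1, SPTLC2 and DEGS1 was seen in the arrays. After SPTLC123 siRNA 20.7% of the SPTLC1 signal and 48.4% of the SPTLC2 signal were left, and after DEGS1 siRNA 7.55% of the DEGS1 signal. The signal of SPTLC3 was not examined. All 9 measured hepatocyte markers exceeded the array-wide median, the log2 intensity of 4.865 that divides the probe sets evenly, as did 4 of 5 cholangiocyte, 2 of 6 stellate cell and fibroblast, 2 of 5 endothelial and 1 of 5 macrophage and leukocyte markers. PTPRC, CD14, CD163 and CD3E of the last list, CDH5, KDR and STAB2 of the endothelial, COL1A2, PDGFRB, DCN and LUM of the stellate and CFTR of the cholangiocyte list did not. The summed linear signal of the hepatocyte markers was 97063 to 102806 in scramble, 79223 to 85403 in SPTLC123 and 88972 to 95484 in DEGS1. In the same order the sums were 2893 to 3618, 3522 to 5128 and 3565 to 5170 for cholangiocyte, 315 to 338, 274 to 327 and 262 to 321 for stellate, 268 to 287, 269 to 287 and 213 to 252 for endothelial, and 6056 to 7147, 7893 to 8782 and 5837 to 6644 for macrophage and leukocyte markers. The hepatocyte sum was thus lowest and the macrophage sum highest in SPTLC123, and the endothelial sum lowest in DEGS1, without overlap. The macrophage sum came almost wholly from its 1 marker above the median (mean log2 12.77), so it does not speak for the list. The part of these sums in the results below was not tested. In SPTLC123 replicate 3 and DEGS1 replicates 2 and 3 the 3′ minus 5′ difference of the actin control probe sets was 1.15 to 1.31, against 0.40 to 0.56 in the other 6 arrays. These 3 arrays are called the arrays with weak 5′ signal. No scramble array was among them, so the fit without them, which keeps DEGS1 replicate 1 as the only DEGS1 array and assumes that it varies like the other groups, is given where it ended a call.

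Most RAB genes were not called in any comparison. In such bulk RNA, fewer cells that hold a transcript and less of it per cell cannot be told apart. After SPTLC123 siRNA 3 members rose and 5 fell, so that 14.0% of the 57 were called against 9.94% of all genes. After DEGS1 siRNA 4 rose and 3 fell, or 12.3% against 9.7%. Between the knockdowns 5 were higher and 3 lower in DEGS1, or 14.0% against 8.66%. These shares of the family lay somewhat above those of all genes, which was not tested. Of the members 48 had a mean signal above the array-wide median, as had 12636 of the 19775 genes, and dimmer genes were called less often. Above that median 16.7%, 14.6% and 16.7% of members were called in the 3 comparisons, against 14.7%, 14.4% and 12.8% of all genes. The split of calls moved with the scaling: quantile normalization gave 2 higher and 6 lower after SPTLC123 siRNA, and 5 higher and 1 lower between the knockdowns, where median centring gave 5 and 6. After DEGS1 siRNA median centring gave 4 higher and 2 lower. Without the arrays with weak 5′ signal 7, 2 and 3 members were called in the 3 comparisons, in the same order. Among single arrays, the count after DEGS1 siRNA fell to 3 without scramble replicate 2 or 3 or DEGS1 replicate 3, and to 1 without DEGS1 replicate 2. Between the knockdowns it was 4 without SPTLC123 replicate 2 or DEGS1 replicate 2, 5 without DEGS1 replicate 3 and 15 without DEGS1 replicate 1. As the share of all genes called in these settings is not given, the counts do not speak to the RAB genes in particular. The groups did not overlap for 19 members in SPTLC123 against scramble (28.9% of all genes), 21 in DEGS1 against scramble (26.3%) and 24 between the knockdowns (25.5%).

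In all, 15 members were called in at least 1 comparison and 42 in none. RAB7A and RAB3C were called in both comparisons against scramble, which share their control arrays. RAB7A was higher in both, and RAB3C lower after SPTLC123 and higher after DEGS1 siRNA. The only change of at least 2-fold was RAB3C between the knockdowns. The median change of the family was -0.02, -0.03 and 0.02 in the 3 comparisons, beside -0.03, -0.01 and 0.01 over all genes.

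Secretory members (25 genes) and endosomal members (25 genes) were called about as often against scramble. After SPTLC123 siRNA 1 secretory gene rose and 2 fell, and 2 endosomal genes rose and 1 fell. After DEGS1 siRNA each class had 2 increases and 1 decrease. Between the knockdowns 3 secretory genes were higher and 2 lower in DEGS1, against 1 and none of the endosomal genes. In each comparison against scramble 12% of either class was called, against 9.94% and 9.7% of all genes. Between the knockdowns it was 20% of the secretory and 4% of the endosomal class, against 8.66%. Above the array-wide median both classes had 14.3% against scramble (all genes 14.7% and 14.4%), and 23.8% and 4.76% between the knockdowns (12.8%). The median changes in the 3 comparisons were -0.04, -0.02 and 0.11 for the secretory and -0.01, -0.07 and 0.01 for the endosomal class. Of the secretory calls between the knockdowns 4 were of exocytic genes, and the other was RAB1A. The difference between the classes was not tested.

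**Figure D1:**
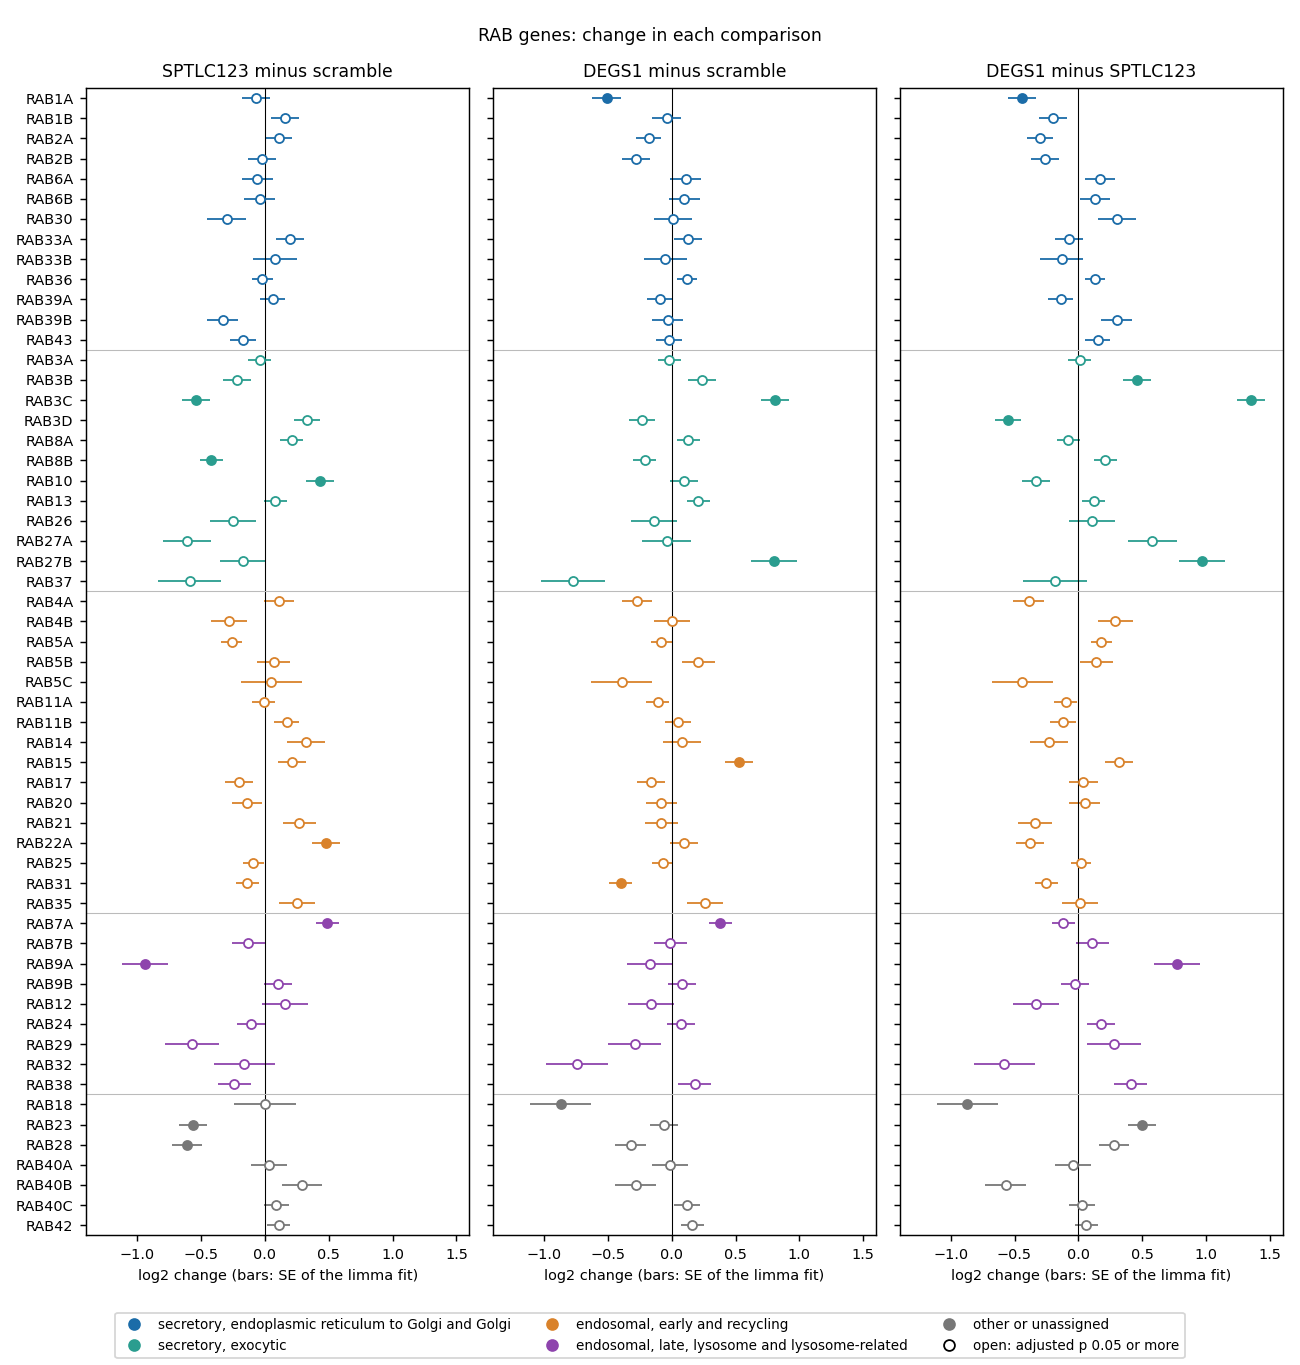
Log2 change of the 57 RAB genes (rows, grouped and coloured by role) in the 3 comparisons (panels); points are fitted changes, bars the SE, and filled points passed an adjusted p of 0.05. Filled points are few and lie on both sides of 0 in each panel, from -0.94 for RAB9A to 1.35 for RAB3C.

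The exocytic members, which act at the last steps of secretion, held the change with the lowest p. Called among these 12 genes were 3 after SPTLC123 siRNA, 2 after DEGS1 siRNA and 4 between the knockdowns. That was 25%, 16.7% and 33.3%, against 9.94%, 9.7% and 8.66% of all genes. All 12 lay above the array-wide median, where 14.7%, 14.4% and 12.8% of all genes were called. The difference was not tested. RAB3C belongs to the RAB3 family, known for its role on secretory vesicles before fusion with the plasma membrane. Its log2 intensity was 4.75, 5.07 and 4.95 in scramble, 4.53, 4.27 and 4.35 in SPTLC123, and 5.84, 5.61 and 5.75 in DEGS1. The 3 groups did not overlap, with SPTLC123 lowest and DEGS1 highest. RAB3C fell by 0.54 ± 0.11 after SPTLC123 siRNA (adjusted p = 0.0119) and rose by 0.81 ± 0.11 after DEGS1 siRNA (adjusted p = 0.0017). The direct difference was 1.35 ± 0.11 (adjusted p = 5.91e-05), or 254% of the SPTLC123 signal, and it was called in all 21 alternative settings. The SPTLC123 level lay below the array-wide median, so the size of the change is less certain than its sign. The 3 other RAB3C probe sets were at or below that median too; between the knockdowns they differed by 0.04, 0.28 and 0.70, none called. Averaged over all 4 probe sets, the changes against scramble were not called (-0.25, adjusted p = 0.319, and 0.34, adjusted p = 0.159).

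The other RAB3 genes did not follow a common direction. RAB3B stood at 6.67, 6.66 and 6.77 in scramble, 6.61, 6.30 and 6.54 in SPTLC123 and 7.09, 6.91 and 6.83 in DEGS1. Its groups did not overlap either and had the order of RAB3C, but only the difference between the knockdowns was called, at 0.46 ± 0.11 (adjusted p = 0.0237). All 4 other RAB3B probe sets had the same sign, from 0.02 to 1.15, and 2 of them were called when every probe set was fitted on its own, where the one used here was not (adjusted p = 0.0542). RAB3B also lost its call without the arrays with weak 5′ signal, although it differed by 0.63 there (adjusted p = 0.118), and without SPTLC123 replicate 2 (0.37, adjusted p = 0.0926) or DEGS1 replicate 2 (0.48, adjusted p = 0.072). RAB3D, the form best known from granules of exocrine cells, had the opposite order: 7.95, 8.20 and 8.02 in scramble, 8.25, 8.45 and 8.45 in SPTLC123, and 7.90, 7.86 and 7.74 in DEGS1. No DEGS1 array reached the lowest scramble array, and all SPTLC123 arrays lay above scramble. RAB3D was lower in DEGS1 than in SPTLC123 by -0.55 ± 0.10 (adjusted p = 0.00698), with the same sign but no call in its other probe set. Without the arrays with weak 5′ signal it differed by -0.45 (adjusted p = 0.259), and as the mean of both probe sets by -0.44 (adjusted p = 0.16). RAB3A, the neuronal form, showed no call, and its interval between the knockdowns ran from -0.19 to 0.22.

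The upstream sequence is shown for the genes with a call in all 21 alternative settings (RAB3C, RAB9A) and for RAB7A, higher in both knockdowns, so that the genes behind the main changes can be compared. The RefSeq promoter table used here (GRCh38.p14) matched 45 of the 57 members, with 64 start sites in all. The windows are the 250 bases before the start, on the gene's strand and 5′ to 3′, with matches to the GC box GGGCGG, on either strand, in capitals. RAB3C lies at chr5:58582825-58583074 (+), RAB9A at chrX:13688878-13689127 (+) and RAB7A at chr3:128725933-128726182 (+).
RAB3C: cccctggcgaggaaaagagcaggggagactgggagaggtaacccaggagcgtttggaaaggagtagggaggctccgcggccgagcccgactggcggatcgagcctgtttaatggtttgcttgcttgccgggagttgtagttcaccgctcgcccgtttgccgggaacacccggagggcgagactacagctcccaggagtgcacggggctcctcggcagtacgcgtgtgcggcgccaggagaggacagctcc
RAB9A: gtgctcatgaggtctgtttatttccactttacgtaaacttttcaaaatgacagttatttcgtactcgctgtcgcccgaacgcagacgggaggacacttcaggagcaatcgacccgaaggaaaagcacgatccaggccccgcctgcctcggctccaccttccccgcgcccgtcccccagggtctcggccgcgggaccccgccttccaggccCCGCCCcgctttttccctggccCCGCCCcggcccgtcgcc
RAB7A: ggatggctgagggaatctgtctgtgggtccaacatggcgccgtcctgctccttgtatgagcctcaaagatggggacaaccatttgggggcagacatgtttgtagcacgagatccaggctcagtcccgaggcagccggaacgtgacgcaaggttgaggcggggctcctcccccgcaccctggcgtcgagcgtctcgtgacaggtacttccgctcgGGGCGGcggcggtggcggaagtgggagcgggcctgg
RAB3C had 0 matches, RAB9A 2 and RAB7A 1. Of the 64 member windows 48 (75.0%) held the GC box, against 53.7% of 22199 windows of protein-coding genes, and the median GC content was 64.8% against 62.0%. The E-box CACGTG stood in 7.8% against 7.4%, the CCAAT box (CCAAT) in 29.7% against 32.7%, the TATA box (TATAAA) in 6.2% against 9.0% and the cyclic AMP element TGACGTCA in 1.6% against 2.0%. All motifs were searched on both strands, and none contains another. A match describes the letters only.

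RAB27A and RAB27B, close paralogs that dock secretory granules and exosome-bearing endosomes at the plasma membrane, were both higher in DEGS1 than in SPTLC123 without overlap, but only RAB27B was called. The difference between the paralogs was not tested. RAB27B stood at 4.52, 4.75 and 4.87 in scramble, 4.86, 4.57 and 4.21 in SPTLC123 and 5.82, 5.48 and 5.25 in DEGS1. Every DEGS1 array lay above every other array, while scramble and SPTLC123 overlapped. RAB27B rose by 0.80 ± 0.18 after DEGS1 siRNA (adjusted p = 0.0185) and was higher by 0.97 ± 0.18 than in SPTLC123 (adjusted p = 0.00706). Its scramble level lay below the array-wide median, and so did its 2 other probe sets, which changed by -0.07 and -0.08 after DEGS1 siRNA. Without the arrays with weak 5′ signal it rose by 1.10 (adjusted p = 0.0279), but without scramble replicate 1 (0.70, adjusted p = 0.0632), scramble replicate 2 (0.82, adjusted p = 0.0517) or DEGS1 replicate 2 (0.82, adjusted p = 0.0607) it was not called. RAB27A stood at 7.68, 8.09 and 7.89 in scramble, 7.36, 7.48 and 6.98 in SPTLC123 and 8.27, 7.70 and 7.57 in DEGS1. All SPTLC123 arrays were below the other 6. The difference from scramble, -0.61 ± 0.19, missed the threshold (adjusted p = 0.0674) and passed it in 5 of 21 alternative settings. Between the knockdowns RAB27A differed by 0.58 ± 0.19 (adjusted p = 0.0913). Its next probe set in signal, at 7.58 against 7.67, differed by 0.05 after SPTLC123 siRNA, 0.55 after DEGS1 siRNA and 0.50 between the knockdowns, none called.

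RAB8A, RAB8B, RAB10 and RAB13 carry cargo from the Golgi and recycling endosomes to the cell surface. RAB8B lay at 11.79, 11.80 and 11.80 in scramble, 11.40, 11.39 and 11.34 in SPTLC123, and 11.71, 11.53 and 11.51 in DEGS1. The SPTLC123 arrays were the lowest and the scramble arrays the highest, with no overlap among the 3 groups. RAB8B fell by 0.42 ± 0.09 after SPTLC123 siRNA (adjusted p = 0.0111), with 74.8% of the signal left. Its 2 other probe sets differed by -0.74 and -0.76, with larger SE of 0.47 and 0.41 and no call. After DEGS1 siRNA it differed by -0.21 ± 0.09 (adjusted p = 0.156). RAB8A was not called: its change after SPTLC123 siRNA was 0.21 ± 0.09 (adjusted p = 0.205), on the other side of 0.

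RAB10, known from insulin-driven delivery of glucose transporters, stood at 10.49, 10.45 and 10.63 in scramble, 10.94, 10.77 and 11.15 in SPTLC123 and 10.62, 10.53 and 10.72 in DEGS1. All SPTLC123 arrays were above all others. RAB10 rose by 0.43 ± 0.11 after SPTLC123 siRNA (adjusted p = 0.0343). The highest array was SPTLC123 replicate 3, with weak 5′ signal, and without the 3 such arrays the difference was 0.33 (adjusted p = 0.115). Leaving out SPTLC123 replicate 1 or 3, or any 1 scramble array, also ended the call (adjusted p from 0.0519 to 0.116). So did quantile normalization (0.40, adjusted p = 0.0622) and the mean of both RAB10 probe sets (0.33, adjusted p = 0.0885). The other probe set, at 9.96, differed by 0.23 ± 0.15 after SPTLC123 siRNA and -0.29 ± 0.15 after DEGS1 siRNA, neither called. RAB13, of epithelial junction traffic, differed by 0.08 ± 0.09 and 0.21 ± 0.09 from scramble, neither called. RAB37 and RAB26, of secretory granules, were not called either. RAB37 differed by -0.77 ± 0.25 after DEGS1 siRNA (adjusted p = 0.0792), with scramble replicate 2 at 6.64 against 5.46 and 5.58 in the other scramble arrays.

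Among the 13 members of the step from the endoplasmic reticulum to the Golgi and of the Golgi itself, none was called after SPTLC123 siRNA and RAB1A alone after DEGS1 siRNA. That was 0% and 7.69%, against 9.94% and 9.7% of all genes. RAB1A organises the tethering of vesicles that arrive at the Golgi. It stood at 12.86, 12.96 and 12.95 in scramble, 12.91, 12.84 and 12.81 in SPTLC123 and 12.68, 12.28 and 12.29 in DEGS1. All DEGS1 arrays lay below the other 6, and the pair with weak 5′ signal lay lowest. RAB1A fell by 0.51 ± 0.11 after DEGS1 siRNA (adjusted p = 0.0187), with 70.4% of the signal left, and was lower by -0.44 ± 0.11 than in SPTLC123 (adjusted p = 0.0377). In DEGS1 replicate 1, set against the arrays with normal 5′ signal, the difference from scramble was -0.24 (adjusted p = 0.471) and from SPTLC123 -0.19 (adjusted p = 0.585). With the actin 3′ minus 5′ difference as a covariate it was -0.35 against scramble (adjusted p = 0.0803). Of its other probe sets, the next in signal differed by -1.07 ± 0.27 and the one after it by -0.10 ± 0.09 against scramble, neither called in a fit over every probe set. Leaving out DEGS1 replicate 2 or 3, or scramble replicate 2 or 3, also ended the call against scramble (adjusted p from 0.0607 to 0.0894), and the call against SPTLC123 ended in 13 of 21 alternative settings.

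The near-identical RAB1B did not follow: it differed by -0.04 ± 0.11 after DEGS1 siRNA, with an interval from -0.28 to 0.21. RAB2A and RAB2B, which act on the same route, differed by -0.18 ± 0.10 and -0.28 ± 0.11 there without a call. The golgins' partner RAB6A was represented by a probe set below the array-wide median (4.07), since its brighter probe sets are shared with other RAB6 genes. RAB6B, RAB30, RAB33B, RAB36 and RAB43, of the Golgi, stayed uncalled in all comparisons by the probe sets used, with changes from -0.30 to 0.30. RAB30 depends on the probe set: the one used differed by -0.30 after SPTLC123 siRNA and 0.01 after DEGS1 siRNA. The next in signal (mean 5.21, against 5.39) rose by 0.81 ± 0.14 (adjusted p = 0.013) and 0.62 ± 0.14 (adjusted p = 0.0474) when all were fitted singly. Another, at 4.84, differed by 0.72 and 0.51 without a call, and the remaining pair by -0.19 and -0.12 after SPTLC123 siRNA. RAB33A, RAB39A and RAB39B lay below the array-wide median.

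Of 16 members of early and recycling endosomes, 3 were called against scramble and none between the knockdowns. That was 6.25%, 12.5% and 0% in the 3 comparisons, against 9.94%, 9.7% and 8.66% of all genes. RAB22A, which guides recycling from early endosomes, stood at 8.03, 8.03 and 7.98 in scramble, 8.54, 8.52 and 8.41 in SPTLC123 and 8.28, 7.90 and 8.17 in DEGS1. All SPTLC123 arrays lay above the rest. RAB22A rose by 0.48 ± 0.11 after SPTLC123 siRNA (adjusted p = 0.0151), and by 0.52 (adjusted p = 0.0142) without the arrays with weak 5′ signal. Its other probe set of similar signal changed by -0.05 ± 0.13, so the increase rests on 1 probe set. The call was lost without scramble replicate 3 (adjusted p = 0.0552), SPTLC123 replicate 1 (adjusted p = 0.0609) or SPTLC123 replicate 2 (adjusted p = 0.0518). RAB15, which slows transport through early endosomes, stood at 7.55, 7.45 and 7.72 in scramble, 7.69, 7.79 and 7.86 in SPTLC123 and 7.94, 8.11 and 8.26 in DEGS1. The DEGS1 arrays were the highest. RAB15 rose by 0.53 ± 0.11 after DEGS1 siRNA (adjusted p = 0.0134), and its other probe set differed by 0.38 ± 0.11 without a call. Without the arrays with weak 5′ signal the difference was 0.36 (adjusted p = 0.328), with the actin covariate 0.42 (adjusted p = 0.0608), and the omission of scramble replicate 2 or of DEGS1 replicate 2 or 3 led to adjusted p from 0.0523 to 0.067.

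RAB31, a relative of RAB22A between Golgi and endosomes, moved the other way. It stood at 8.78, 8.83 and 8.95 in scramble, 8.68, 8.71 and 8.74 in SPTLC123 and 8.46, 8.36 and 8.54 in DEGS1, so that the 3 groups did not overlap. RAB31 fell by 0.40 ± 0.09 after DEGS1 siRNA (adjusted p = 0.0179), with 75.8% of the signal left. A second probe set of it changed by -0.47 ± 0.10 and was called when all probe sets were fitted singly (adjusted p = 0.0425), and the remaining one differed by -0.11 ± 0.14. In DEGS1 replicate 1 alone, among arrays with normal 5′ signal, the difference was still -0.39 (adjusted p = 0.231), while omission of scramble replicate 3 or of DEGS1 replicate 2 gave -0.35 (adjusted p = 0.0769 and 0.0849).

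RAB5A, RAB11A and RAB4A, the best known RABs of early and recycling endosomes, were not called. RAB5A, the organiser of early endosomes, stood at 10.84, 10.92 and 10.86 in scramble, 10.64, 10.55 and 10.66 in SPTLC123 and 10.76, 10.80 and 10.82 in DEGS1. The SPTLC123 arrays were the lowest, but the difference of -0.26 ± 0.08 missed the threshold (adjusted p = 0.0725). RAB5B differed by at most 0.21 ± 0.13. RAB5C had 1 scramble array, replicate 1, at 10.09 against 9.19 and 9.19 in the others, and its difference of -0.39 ± 0.24 after DEGS1 siRNA was not called. RAB11A, the mark of recycling endosomes, stood within 11.69 and 11.95 in all 9 arrays. Its 95% interval ran from -0.22 to 0.19 after SPTLC123 and from -0.32 to 0.09 after DEGS1 siRNA. RAB4A, of fast recycling, differed by -0.39 ± 0.12 between the knockdowns (adjusted p = 0.0792). RAB14, RAB21 and RAB35 lay between 0.25 and 0.32 above scramble after SPTLC123 siRNA, none called. RAB4B, RAB11B and RAB17 differed by at most 0.29 in size and were not called either. RAB20 and RAB25, known from other epithelia, lay below the array-wide median.

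Of 9 members of late endosomes, lysosomes and related organelles, RAB7A and RAB9A were called. That was 22.2%, 11.1% and 11.1% in the 3 comparisons, against 9.94%, 9.7% and 8.66% of all genes. RAB7A drives the fusion of late endosomes and autophagosomes with lysosomes. It stood at 9.45, 9.58 and 9.56 in scramble, 10.10, 9.97 and 9.99 in SPTLC123 and 9.94, 9.87 and 9.91 in DEGS1. All 6 knockdown arrays lay above all scramble arrays. RAB7A rose by 0.49 ± 0.09 after SPTLC123 siRNA (adjusted p = 0.00432) and by 0.38 ± 0.09 after DEGS1 siRNA (adjusted p = 0.019), to 141% and 130% of scramble. The knockdowns differed by -0.12 ± 0.09 (interval -0.30 to 0.07). The differences without the arrays with weak 5′ signal were 0.51 (adjusted p = 0.0221) and 0.41 (adjusted p = 0.213). The call after DEGS1 siRNA was also lost without scramble replicate 1 or 3 or DEGS1 replicate 2 or 3 (adjusted p from 0.0547 to 0.0739). A second probe set of nearly the same signal changed by 0.32 ± 0.15 and 0.96 ± 0.15, and the latter was called when all were fitted singly (adjusted p = 0.0121). The other 5 RAB7A probe sets were much dimmer, between 2.77 and 5.15, and differed by at most 0.19 in size against scramble. Averaged with these, RAB7A changed by 0.09 and 0.19, with no call.

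RAB9A returns mannose 6-phosphate receptors from late endosomes to the trans-Golgi. It stood at 8.46, 8.77 and 8.65 in scramble, 7.86, 7.83 and 7.38 in SPTLC123 and 8.83, 8.44 and 8.12 in DEGS1. All SPTLC123 arrays lay below the rest, with replicate 3 lowest. RAB9A fell by 0.94 ± 0.18 after SPTLC123 siRNA (adjusted p = 0.00733), with 52.1% of the signal left, and was called in all 21 alternative settings. The change was -0.79 (adjusted p = 0.00592) without the arrays with weak 5′ signal. After DEGS1 siRNA it differed by -0.17 ± 0.18 (adjusted p = 0.636), with an interval from -0.56 to 0.23. The difference between the knockdowns was 0.77 ± 0.18 (adjusted p = 0.0225), and within the arrays with weak 5′ signal, with 2 DEGS1 arrays and 1 SPTLC123 array, it was 0.90. Leaving out SPTLC123 replicate 3 (0.62, adjusted p = 0.058) or DEGS1 replicate 2 (0.78, adjusted p = 0.0736) ended this call. RAB9A had a single probe set. Its paralog RAB9B differed by no more than 0.10 ± 0.11 in size.

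RAB29 and RAB32, both of lysosome-related organelles, were not called. RAB32 stood at 9.49, 9.57 and 9.47 in scramble, 9.65, 9.55 and 8.86 in SPTLC123 and 9.33, 8.62 and 8.36 in DEGS1. The 3 lowest arrays are those with weak 5′ signal. The difference after DEGS1 siRNA was -0.74 ± 0.24 (adjusted p = 0.0813), and -0.18 (adjusted p = 0.625) without these arrays. RAB29 differed by -0.57 ± 0.21 after SPTLC123 siRNA (adjusted p = 0.125). RAB12 and RAB24, linked to degradation and autophagy, differed by at most 0.33 in size. RAB7B and RAB38 lay below the array-wide median, with means of 4.13 and 3.80.

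**Figure D2:**
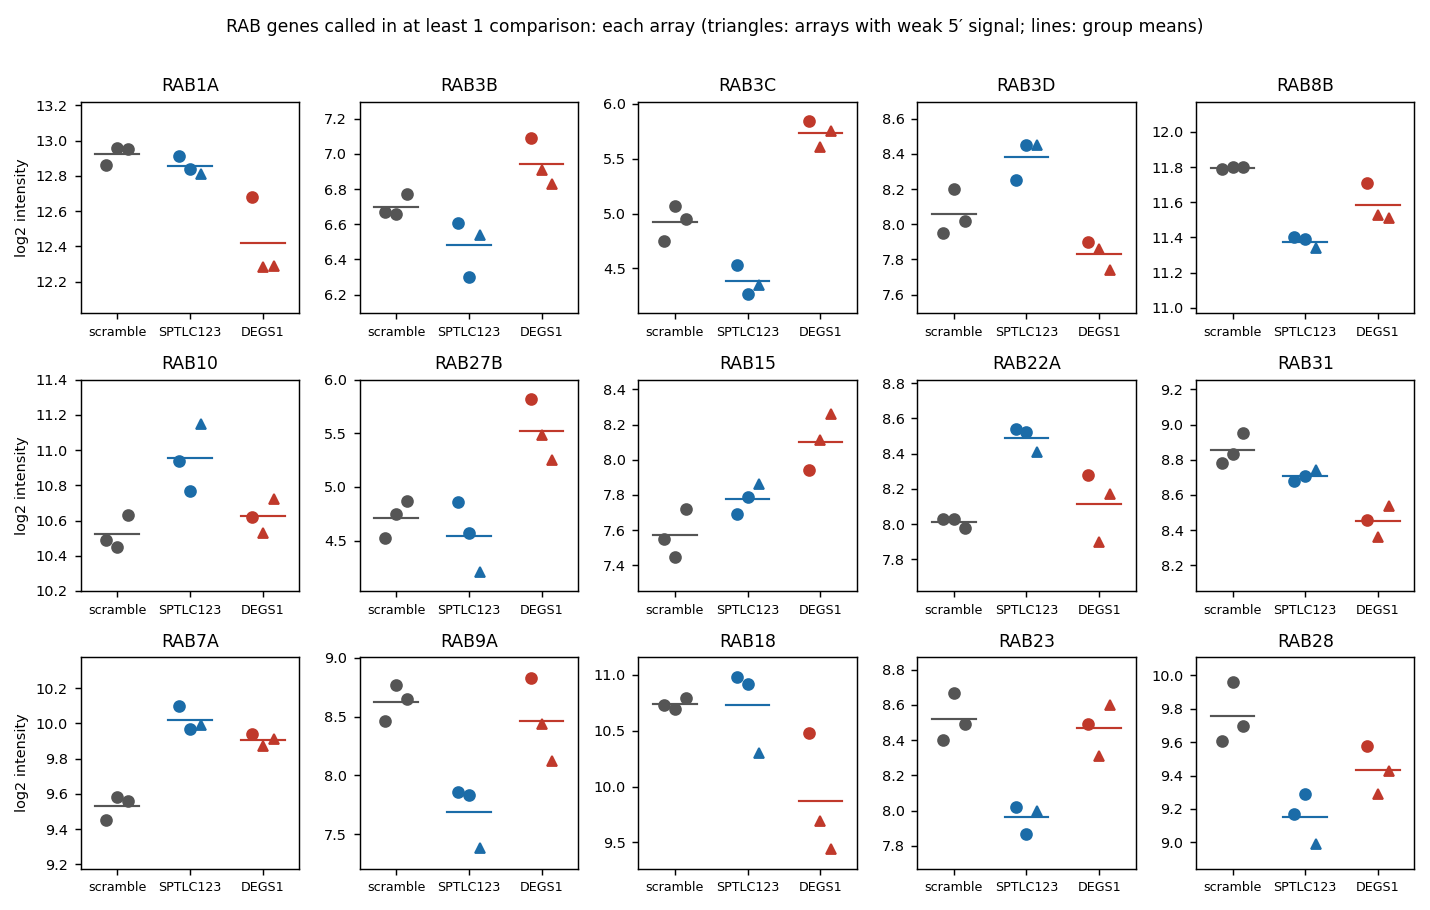
Log2 intensity of the 15 RAB genes called in at least 1 comparison, 1 point per array and a line at each group mean; triangles mark the arrays with weak 5′ signal. The 3 groups separate for RAB3C, RAB3B and RAB31, among others, SPTLC123 alone stands low for RAB9A and RAB23, and for RAB18 and RAB1A the lowest points are the DEGS1 triangles.

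The remaining 7 members have roles outside these classes or none assigned here. RAB18, of lipid droplets and the endoplasmic reticulum, stood at 10.73, 10.69 and 10.79 in scramble, 10.98, 10.92 and 10.30 in SPTLC123 and 10.48, 9.69 and 9.44 in DEGS1. Within SPTLC123 and within DEGS1 the arrays with weak 5′ signal were the lowest. RAB18 fell by 0.87 ± 0.24 after DEGS1 siRNA (adjusted p = 0.0457) and was lower by -0.87 ± 0.24 than in SPTLC123 (adjusted p = 0.0491). Without the arrays with weak 5′ signal the difference from scramble was -0.26 (adjusted p = 0.417), and with the actin covariate -0.39 (adjusted p = 0.0755). The call against scramble ended in 15 of 21 alternative settings, the omission of each scramble array and of DEGS1 replicate 2 or 3 among them (adjusted p from 0.0986 to 0.185). The call against SPTLC123 ended in 14 of 21, with -0.47 (adjusted p = 0.142) without the arrays with weak 5′ signal, -0.78 (adjusted p = 0.0612) after quantile normalization, and adjusted p from 0.0652 to 0.19 without any 1 scramble array, SPTLC123 replicate 1 or 2, or DEGS1 replicate 2 or 3. A second probe set, with a smaller SE, changed by -0.53 ± 0.11 against scramble (adjusted p = 0.0387) and -0.65 ± 0.11 against SPTLC123 (adjusted p = 0.0161) in the fit over every probe set. The dimmer RAB18 probe sets differed by -0.71 ± 0.24, -0.05 ± 0.15, 0.69 ± 0.42 and 1.1 ± 0.44 from scramble, none called. As the mean of all its probe sets RAB18 differed by -0.06 from scramble (adjusted p = 0.772) and -0.28 from SPTLC123 (adjusted p = 0.122).

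RAB23, which restrains Hedgehog signalling and acts in cilia, stood at 8.40, 8.67 and 8.49 in scramble, 8.02, 7.87 and 8.0 in SPTLC123 and 8.49, 8.31 and 8.60 in DEGS1. All SPTLC123 arrays lay below the other 6. RAB23 fell by 0.56 ± 0.11 after SPTLC123 siRNA (adjusted p = 0.00735) and was higher by 0.50 ± 0.11 in DEGS1 than in SPTLC123 (adjusted p = 0.0148). Its 2 other probe sets differed by 0.08 ± 0.15 and -0.70 ± 0.53 after SPTLC123 siRNA, with no call. The mean over the probe sets gave -0.39 there (adjusted p = 0.358). Between the knockdowns these 2 probe sets differed by -0.27 and -0.43, the opposite sign, with no call, and the mean over the probe sets gave -0.07 (adjusted p = 0.903). The difference between the knockdowns was not called without SPTLC123 replicate 2 (0.46, adjusted p = 0.0654), DEGS1 replicate 3 (0.44, adjusted p = 0.0705) or the arrays with weak 5′ signal (0.54, adjusted p = 0.167). RAB28, found at cilia and on endosomes, stood at 9.61, 9.96 and 9.70 in scramble, 9.17, 9.29 and 8.99 in SPTLC123 and 9.58, 9.29 and 9.43 in DEGS1. Scramble lay above SPTLC123 without overlap. RAB28 fell by 0.61 ± 0.12 after SPTLC123 siRNA (adjusted p = 0.01), and its other pair of probe sets above the median differed by -0.68 and -0.69 without a call. RAB40B, a RAB that recruits ubiquitin ligases, was lower in DEGS1 than in SPTLC123 by -0.57 ± 0.16 just outside the threshold (adjusted p = 0.0507), which it passed in 6 of 21 alternative settings. RAB40C and RAB42 differed by at most 0.16 in size, and RAB40A lay below the array-wide median, with a mean of 3.20.

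**Figure D3:**
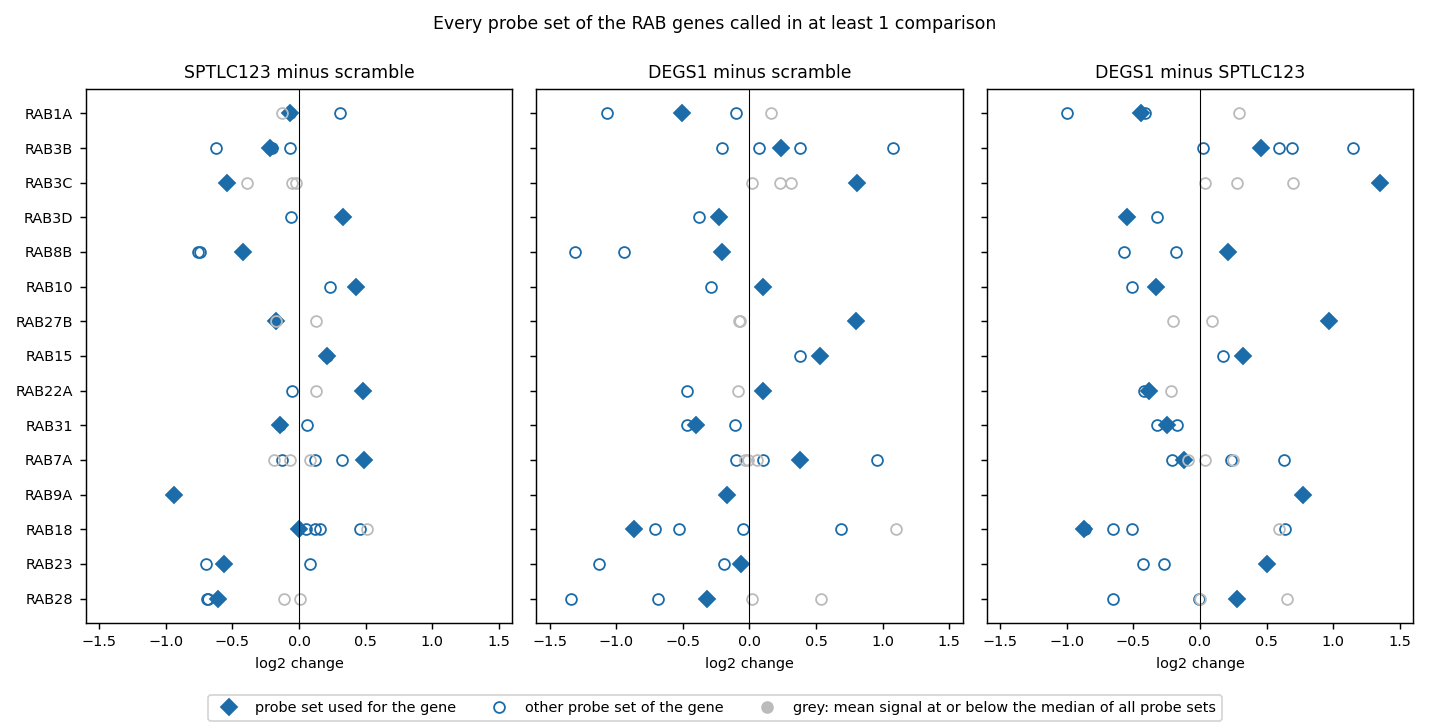
Log2 change of every probe set of the 15 called RAB genes in the 3 comparisons; diamonds are the probe sets used, circles the others, and grey marks a mean signal at or below the array-wide median. The probe sets of RAB3B lie on the same side of 0 between the knockdowns, whereas those of RAB18 lie on both sides, from -0.87 to 0.64.

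Genes that load, switch or read RAB proteins were counted in 4 lists. Of 10 genes of prenylation and membrane extraction, 1 was called in each comparison (10.0%, near the 9.94%, 9.7% and 8.66% of all genes). CHML, 1 of the escort proteins that present RABs to the geranylgeranyl transferase, stood at 9.38, 8.63 and 9.36 in scramble, 7.71, 7.64 and 7.97 in SPTLC123 and 8.95, 9.16 and 9.20 in DEGS1. All SPTLC123 arrays were below the other 6. CHML fell by 1.35 ± 0.18 after SPTLC123 siRNA (adjusted p = 0.000989), with a difference of -0.01 ± 0.18 after DEGS1 siRNA and of 1.33 ± 0.18 between the knockdowns (adjusted p = 0.00125). The latter was 1.28 (adjusted p = 0.0812) without the arrays with weak 5′ signal. ARL6IP5, a membrane protein of the PRA1 family, fell by 0.56 ± 0.14 after DEGS1 siRNA (adjusted p = 0.0323), and differed by -0.28 (adjusted p = 0.525) without the arrays with weak 5′ signal. Leaving out any 1 scramble array, SPTLC123 replicate 2, or DEGS1 replicate 2 or 3 also ended that call (adjusted p from 0.0502 to 0.138).

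Among 54 exchange factors, 5 rose and 4 fell after SPTLC123 siRNA, 4 rose and 6 fell after DEGS1 siRNA, and 5 were higher and 2 lower in DEGS1 than in SPTLC123. The shares were 16.7%, 18.5% and 13.0%, against 9.94%, 9.7% and 8.66% of all genes. Above the array-wide median they were 17%, 19.1% and 14.9%, against 14.7%, 14.4% and 12.8% of all genes. The difference was not tested. RAB3IP, known as Rabin8 and an exchange factor for RAB8, stood at 7.74, 8.02 and 7.91 in scramble, 6.63, 6.61 and 6.81 in SPTLC123 and 8.06, 8.04 and 8.13 in DEGS1. The SPTLC123 arrays lay far below both other groups. RAB3IP fell by 1.21 ± 0.10 after SPTLC123 siRNA (adjusted p = 4.52e-05) and was higher by 1.40 ± 0.10 in DEGS1 (adjusted p = 2.03e-05), both called in all 21 alternative settings. DENND6A, an exchange factor for RAB14, changed by -0.99 ± 0.10 and DENND1B, for RAB35, by -1.02 ± 0.11 after SPTLC123 siRNA (adjusted p = 0.000139 and 0.000211). DENND1B was also lower after DEGS1 siRNA, by -0.48 ± 0.11 (adjusted p = 0.0197), a change not refitted under the alternative settings. DENND4C, for RAB10, rose in both, by 0.63 ± 0.11 and 0.56 ± 0.11, and SBF1, a myotubularin relative with a DENN domain, by 0.50 ± 0.12 and 0.78 ± 0.12. After DEGS1 siRNA the calls of DENND4C (change 0.43) and SBF1 (0.58) ended without the arrays with weak 5′ signal. Both also ended as the mean of each gene's probe sets (0.24, adjusted p = 0.0773, and 0.28, adjusted p = 0.0874). The rise of SBF1 after SPTLC123 siRNA was not refitted under the alternative settings. DENND4A fell by 1.02 ± 0.21 after DEGS1 siRNA (adjusted p = 0.0121), but its 3 lowest arrays, at 7.37, 7.37 and 7.97, were those with weak 5′ signal, and without these it differed by -0.55 (adjusted p = 0.262). Its call also ended without scramble replicate 2 or DEGS1 replicate 2 or 3 (adjusted p from 0.0503 to 0.0607).

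Among 37 GTPase-activating proteins, 5 rose and 3 fell after SPTLC123 siRNA, 1 rose and 2 fell after DEGS1 siRNA, and 4 were higher and 4 lower between the knockdowns. The shares were 21.6%, 8.11% and 21.6%, against 9.94%, 9.7% and 8.66% of all genes. Above the array-wide median they were 22.2%, 8.33% and 22.2%, against 14.7%, 14.4% and 12.8% of all genes. TBC1D4, or AS160, the insulin-controlled brake on RAB10, stood at 8.11, 7.92 and 8.15 in scramble, 9.01, 8.90 and 9.01 in SPTLC123 and 8.37, 8.04 and 8.29 in DEGS1. The SPTLC123 arrays were above all others. TBC1D4 rose by 0.92 ± 0.11 after SPTLC123 siRNA (adjusted p = 0.000421), and was lower by -0.74 ± 0.11 in DEGS1 (adjusted p = 0.00187), a difference of -0.59 (adjusted p = 0.12) without the arrays with weak 5′ signal. TBC1D20, which inactivates RAB1, rose by 0.51 ± 0.09 after SPTLC123 siRNA (adjusted p = 0.00349) and was lower by -0.76 ± 0.09 in DEGS1 (adjusted p = 0.000386). The former was 0.29 (adjusted p = 0.208) as the mean of its probe sets. EVI5 fell by 0.77 ± 0.12 after SPTLC123 siRNA (adjusted p = 0.00203) and TBC1D8B by 0.85 ± 0.17 after DEGS1 siRNA (adjusted p = 0.0118). TBC1D8B lost this call without DEGS1 replicate 2 (-0.78, adjusted p = 0.0577) and without the arrays with weak 5′ signal (-0.80, adjusted p = 0.236).

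Effectors were called near or below the share of all genes, and below it among genes above the array-wide median. Above that median 10.7%, 8.93% and 5.36% were called in the 3 comparisons, against 14.7%, 14.4% and 12.8% of all genes. The difference was not tested. Of 60, 4 rose and 2 fell after SPTLC123 siRNA (10.0%, against 9.94% of all genes), 4 rose and 1 fell after DEGS1 siRNA (8.33%), and 1 was higher and 2 lower between the knockdowns (5.0%). EEA1, the tether that RAB5 recruits to early endosomes, rose by 0.45 ± 0.11 after SPTLC123 siRNA (adjusted p = 0.0256) and by 0.41 ± 0.11 after DEGS1 siRNA (adjusted p = 0.0398). Leaving out any 1 scramble array, or SPTLC123 replicate 1 or 3, ended the former call (adjusted p from 0.0622 to 0.093). The latter was not refitted under the alternative settings. OSBPL1A, a sterol sensor that binds RAB7, rose by 0.76 ± 0.12 after SPTLC123 siRNA (adjusted p = 0.00277) and was lower by -0.85 ± 0.12 in DEGS1 (adjusted p = 0.00161). GCC2, a golgin of the trans-Golgi, fell by 0.57 ± 0.10 after SPTLC123 siRNA (adjusted p = 0.00426). As the mean of its probe sets GCC2 differed by -0.18 there (adjusted p = 0.245). RAB11FIP4, an effector of RAB11, rose by 0.75 ± 0.17 after DEGS1 siRNA (adjusted p = 0.0216) and differed by 0.56 (adjusted p = 0.427) without the arrays with weak 5′ signal. Leaving out scramble replicate 1 or 3, or DEGS1 replicate 2 or 3, ended its call too (adjusted p from 0.0542 to 0.098). MYO5A, a motor of recycling and secretory vesicles, fell by 0.54 ± 0.11 after DEGS1 siRNA (adjusted p = 0.0145), a call that ended without scramble replicate 3 (adjusted p = 0.0651) and without the arrays with weak 5′ signal (adjusted p = 0.0546).

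**Figure D4:**
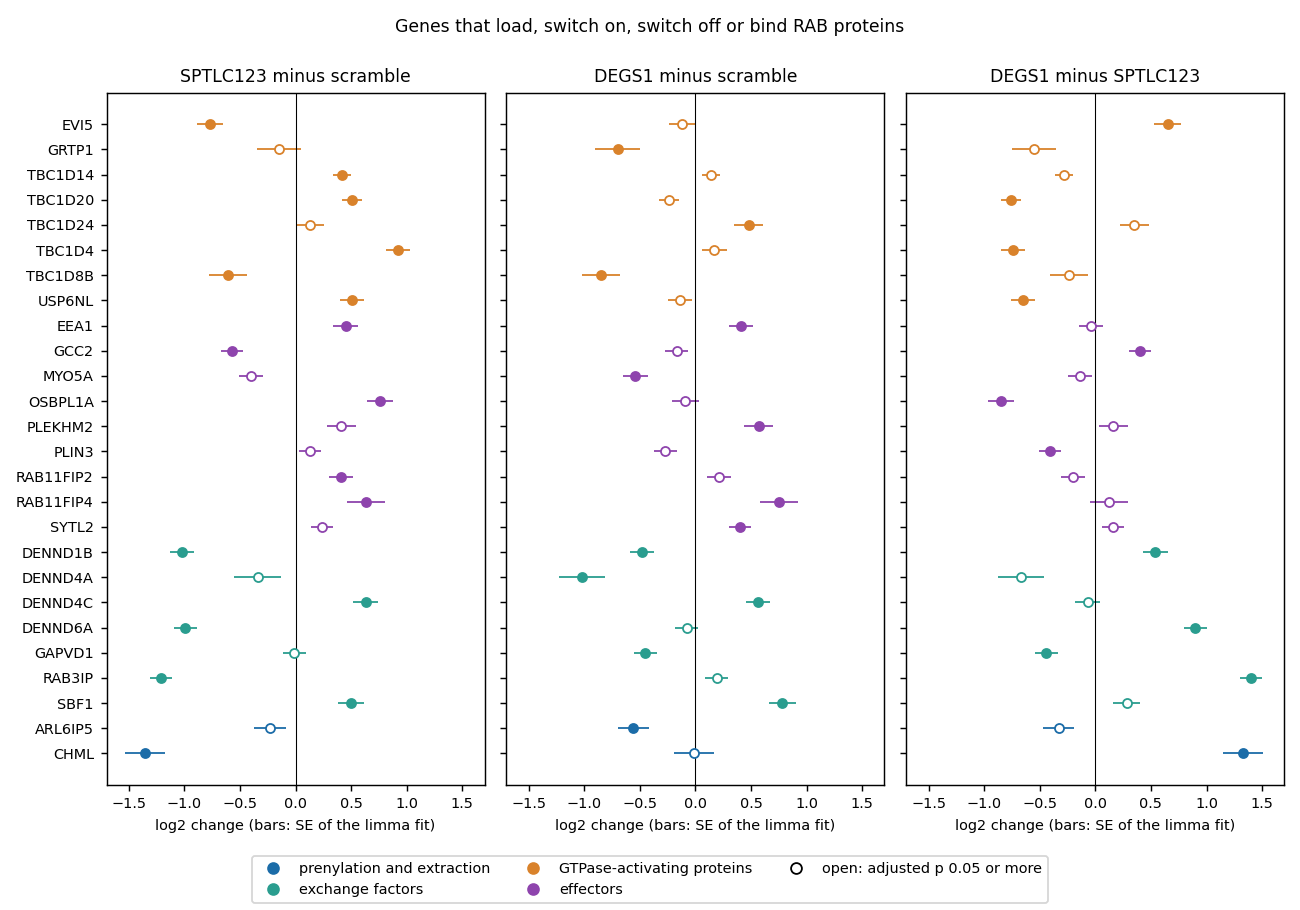
Log2 change of 26 genes that load, switch or bind RAB proteins, those called among the 4 with the lowest adjusted p of each list, in the 3 comparisons; bars are the SE and open points have an adjusted p of 0.05 or more. RAB3IP and CHML stand lowest after SPTLC123 siRNA, at -1.21 and -1.35, and highest between the knockdowns, at 1.40 and 1.33.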

How the data were processed

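RNA of 3 groups of 3 Huh7 cultures was measured on 9 one-colour Affymetrix arrays. The authors deposited a normalized intensity per probe set, on a linear scale. The submitters' processing notes list limma 2.14.7, GCRMA 2.12.1 and RMA; which of the last pair made the values is not given in the sources used here. Log2 of the values was used without further normalization. The platform annotation gave 1 gene symbol to 41091 of the 54613 probe sets that are not controls, several to 1801 and none to 11721; 19775 genes were tested, each by its brightest 1-gene probe set. limma 3.58.1 in R 4.3.3 fitted all 9 arrays with 6 residual degrees of freedom, 1 mean per group, eBayes and Benjamini-Hochberg adjustment, and was tested on simulated data. With 3 arrays per group their number limits the precision, and p-values measure the spread between these cultures only.

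Named with values are the members called in any comparison, their paralogs, the brightest and dimmest members, the largest uncalled changes, and up to 4 genes of each machinery list per comparison by adjusted p, plus further members for their known role. Members, roles and lists were chosen with earlier results of these data known. Promoters are from RefSeq (GRCh38.p14). Levels of different probe sets are set side by side only to order them by signal or against the array-wide median. Alternatives covered the choice of probe set, scaling, variance model, arrays used, threshold and 5′ signal.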

Additional observations from a re-analysis of the deposited data

How the results depend on the processing

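The counts of called RAB genes were 8 after SPTLC123 siRNA, 7 after DEGS1 siRNA and 8 between the knockdowns. When each gene's probe sets were averaged they were 1, 1 and 5, and at an adjusted p under 0.01 they were 3, 1 and 3. For these and the counts below, the share of all genes called in that setting is not given. So the counts cannot show a shift particular to the RAB genes. Array weights gave 11 and 16 in the latter pair of comparisons, and the fit of only the 2 groups compared gave 4 between the knockdowns. With the actin 3′ minus 5′ difference as a covariate 3 were called after DEGS1 siRNA, and without the 3 arrays with weak 5′ signal 2 after DEGS1 siRNA and 3 between the knockdowns. Leaving out 1 array at a time gave 6 to 9, 1 to 9 and 4 to 15; DEGS1 replicate 2 gave the lowest count after DEGS1 siRNA, and DEGS1 replicate 1 the highest between the knockdowns. Whether the replicate numbers pair the samples is not settled. Of 9 same-number pairs 3 correlated above 0.1 (from -0.28 to 0.54), as did 6 of 18 other-number pairs (from -0.62 to 0.41). SPTLC123 replicate 3 correlated at 0.54 with DEGS1 replicate 3, also of weak 5′ signal, and at -0.62 with DEGS1 replicate 1, of normal 5′ signal. Such correlations cannot tell pairing from shared 5′ signal. With the replicate block the counts were 8, 8 and 10. Of the single-gene results under all alternatives 1173 kept their direction and side of the threshold, 254 lost the call, 20 gained one and 2 reversed: RAB5C after DEGS1 siRNA was 0.01 without the 3 arrays with weak 5′ signal, and RAB23 between the knockdowns was -0.07 with the mean of its probe sets. The cause was not tested. Genes near or below the array-wide median are limited by background signal.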

Other observations

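Some RAB genes had probe sets annotated to more than 1 gene, which enter no count above. The brighter of the RAB6A probe sets shared with RAB6C and RAB6D had a mean log2 intensity of 10.94 and differed by 0.26 after SPTLC123 siRNA, -0.05 after DEGS1 siRNA and -0.31 between the knockdowns. Of 3 shared with RAB6D alone, the brightest, at 10.54, differed by 0.24, 0.01 and -0.23. The others, at 6.97 and 6.15, differed by -1.20 ± 0.57 (adjusted p = 0.285) and -0.88 ± 0.48 (adjusted p = 0.348) after DEGS1 siRNA. A pair of probe sets for RAB34 and NARR, at 9.72 and 9.69, differed by 0.11 and 0.20 after SPTLC123 siRNA and by -0.06 and 0.18 after DEGS1 siRNA. The brightest of 3 probe sets for RAB4B and its readthrough with MIA, at 7.79, differed by 0.18, -0.21 and -0.39 in the 3 comparisons. The one for RAB43 and its readthrough with ISY1, at 6.50, differed by 0.16, 0.10 and -0.06. None of these was called in limma's fit over every probe set.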
